A study of Mus musculus with 12 samples.

Results

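The genes described here carry glutamate into astrocytes, turn it into glutamine and join it to mitochondrial metabolism. They are 9 genes of the 48709 measured, chosen by symbol from what is known of the pathway: Slc1a2, Slc1a3, Slc1a4, Glul, Glud1, Slc25a18, Slc38a3, Got1 and Got2. The choice was made with earlier results of these data known. All 9 were among the 15571 genes that passed the filter on low counts. RNA came from cells that were selected with ACSA-2, an antigen on the astrocyte surface, from brains of C57BL/6 mice aged 90 to 120 days, 24 h after transient middle cerebral artery occlusion (tMCAO), a stroke model in which an artery feeding 1 hemisphere is blocked and reopened. Every mouse carried Gfap-CreERT2+/-, a tamoxifen-activated Cre recombinase driven in Gfap-expressing cells, and floxed alleles. The 3 mice called wild-type (296, 297 and 474) were given corn oil. The 3 labelled Nhe1 Astro-KO (295, 298 and 300), here called Astro-KO, were given tamoxifen. An effect of tamoxifen itself and an effect of the deletion therefore cannot be told apart. Each mouse gave 1 library from the ipsilateral (occluded) hemisphere and 1 from the contralateral hemisphere, which makes 4 groups of 3 libraries. The series addresses what deletion in astrocytes does after stroke, and the comparisons are between hemispheres within a genotype and between genotypes within a hemisphere.

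Glutamate released at synapses is cleared mainly by astrocytes, through the sodium-coupled transporters encoded by Slc1a2 (GLT-1) and Slc1a3 (GLAST). Inside the astrocyte, glutamine synthetase (Glul) joins glutamate to ammonia, and the resulting glutamine leaves through carriers such as SNAT3 (Slc38a3) to be taken up by neurons, which make glutamate from it again. Glutamate can instead enter mitochondria, for which Slc25a18 is a carrier, and be oxidised through glutamate dehydrogenase (Glud1) or exchange its amino group through the cytosolic and mitochondrial aspartate aminotransferases (Got1 and Got2). Slc1a4 belongs to the same family as the uptake transporters but exchanges small neutral amino acids such as serine and alanine. Failure of glutamate uptake in ischaemic tissue is a known contributor to excitotoxic injury of neurons.

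Total counts were 11187723 to 15780600 per library, and 18292 to 19024 genes had a count. All 10 astrocyte markers were detected, with summed levels of 10061 to 14727 CPM (counts scaled to library size) in wild-type contralateral, 5089 to 6467 in wild-type ipsilateral, 15323 to 16759 in Astro-KO contralateral and 9950 to 14912 in Astro-KO ipsilateral libraries. All 10 oligodendrocyte markers were detected too, at 20007 to 21371, 15281 to 24346, 6208 to 8690 and 10591 to 24289 CPM in the same order of groups. The Astro-KO ipsilateral library of mouse 300 stood apart in its group, with 24289 CPM of oligodendrocyte and 395 CPM of microglial markers, against at most 11276 and at least 1620 in the other libraries of that group. Mouse 296 had 2733 to 2917 counts of Y-linked genes, against 0 to 8 in the libraries of the other mice, and the labels give no sex. Mitochondrial transcripts took 0.923 to 1.83% of counts, with the highest shares in the ipsilateral libraries of mice 298 (1.68%) and 300 (1.83%). In bulk RNA, fewer cells of a type and less RNA per cell cannot be told apart.

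In the mm10 build, whose gene spans are taken here from GENCODE, the uptake transporters lie at chr2:102658659-102790784 (Slc1a2, plus strand) and chr15:8634124-8710764 (Slc1a3, minus), and Slc1a4 at chr11:20302180-20332713 (minus). The glutamine genes lie at chr1:153899944-153909723 (Glul, plus) and chr9:107650634-107669530 (Slc38a3, minus). Of the mitochondrial and transamination genes, Glud1 lies at chr14:34310727-34345265 (plus), Slc25a18 at chr6:120773578-120794336 (plus), Got1 at chr19:43499752-43524605 (minus) and Got2 at chr8:95864134-95888547 (minus). The 300 bases around the RefSeq start of transcription (250 before and 50 after, GRCm38.p6) were found for 8 of the 9 genes, all but Slc38a3. They are shown for the transporters Slc1a2 and Slc1a3 and for Glul, the most abundant of these transcripts, for Slc25a18, which had the largest fold change of the 9 between hemispheres of wild-type mice and between genotypes, and for Got1, which passed no test below. Each is read 5′ to 3′ along the gene's own strand. Capitals mark matches, on either strand, to 3 motifs: CCAAT (the CCAAT box), TGACG (core of the cyclic AMP response element) and TTCNNNGAA (the palindrome bound by STAT proteins).
Slc1a2, chr2:102706188-102706487, plus strand: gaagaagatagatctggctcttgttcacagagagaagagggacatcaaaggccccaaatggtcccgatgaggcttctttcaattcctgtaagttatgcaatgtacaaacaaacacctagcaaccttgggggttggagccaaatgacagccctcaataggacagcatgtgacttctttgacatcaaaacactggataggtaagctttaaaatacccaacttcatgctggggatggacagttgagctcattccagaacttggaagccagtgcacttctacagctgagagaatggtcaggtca
Slc1a3, chr15:8710758-8711057, minus strand: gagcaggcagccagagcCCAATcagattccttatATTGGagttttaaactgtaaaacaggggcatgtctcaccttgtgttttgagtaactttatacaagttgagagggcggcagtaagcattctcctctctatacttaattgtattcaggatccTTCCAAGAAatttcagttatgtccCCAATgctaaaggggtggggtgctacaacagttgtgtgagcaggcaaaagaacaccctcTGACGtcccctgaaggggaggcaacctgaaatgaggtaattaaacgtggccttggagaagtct
Glul, chr1:153899679-153899978, plus strand: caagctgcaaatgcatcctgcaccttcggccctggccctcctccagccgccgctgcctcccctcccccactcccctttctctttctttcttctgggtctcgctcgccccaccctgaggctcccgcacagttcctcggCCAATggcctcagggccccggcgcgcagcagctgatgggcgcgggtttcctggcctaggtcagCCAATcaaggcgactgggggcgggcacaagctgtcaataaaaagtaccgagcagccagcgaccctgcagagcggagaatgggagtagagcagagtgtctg
Slc25a18, chr6:120773518-120773817, plus strand: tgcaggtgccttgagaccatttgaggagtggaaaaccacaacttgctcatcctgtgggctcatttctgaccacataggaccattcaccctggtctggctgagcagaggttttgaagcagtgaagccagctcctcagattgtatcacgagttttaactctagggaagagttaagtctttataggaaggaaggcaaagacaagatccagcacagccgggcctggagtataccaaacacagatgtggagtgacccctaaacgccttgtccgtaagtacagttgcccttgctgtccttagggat
Got1, chr19:43524556-43524855, minus strand: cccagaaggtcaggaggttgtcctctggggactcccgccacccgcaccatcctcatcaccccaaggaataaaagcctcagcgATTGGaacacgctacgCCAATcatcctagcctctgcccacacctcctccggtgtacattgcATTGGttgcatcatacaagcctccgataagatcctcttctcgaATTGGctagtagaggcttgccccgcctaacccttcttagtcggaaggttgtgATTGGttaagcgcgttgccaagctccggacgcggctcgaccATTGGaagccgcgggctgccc
Slc1a2 and Slc25a18 held none of the 3 motifs in this window. The Slc1a3 window held 3 CCAAT, 1 TGACG and 1 TTCNNNGAA match, Glul 2 CCAAT and Got1 6 CCAAT. Of the windows not printed, Slc1a4 held 2 CCAAT and 1 TGACG, and Glud1 and Got2 held none. CCAAT occurred in 37.4% of all 32851 promoters of this length, TGACG in 20.8% and TTCNNNGAA in 8.30%. The GC content ranged from 45.3% (Slc1a3) to 81.0% (Glud1) in the 8 windows, against a median of 52.7% over all promoters. The RefSeq start used for Slc1a2 lies 47779 bases inside the GENCODE gene, so that window is 1 of the starts of that gene.

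On the deposited TPM scale, which corrects for transcript length and so allows genes to be compared, Glul was the most abundant of the 9 in every group. In the wild-type contralateral hemisphere its level was 5569 ± 762 TPM (SD, n = 3, as for the group means that follow), rank 11 among all genes by group mean. The glial uptake transporters followed, Slc1a2 at 1545 ± 161 TPM (rank 55) and Slc1a3 at 1004 ± 231 (rank 95). Next came Slc25a18 (495 ± 159), Glud1 (446 ± 39), Slc38a3 (397 ± 156) and Slc1a4 (301 ± 80), with library values that overlapped from each of these to the next. The aminotransferases were far lower, Got2 at 79.0 ± 5.4 TPM (rank 2429) and Got1 at 68.2 ± 18.0 (rank 2872). Summed over the 9 genes, the level was 9905 ± 910 TPM in wild-type contralateral, 6095 ± 725 in wild-type ipsilateral, 12889 ± 798 in Astro-KO contralateral and 9400 ± 2098 in Astro-KO ipsilateral libraries. Glul made up 56.2 ± 5.9% of that sum in wild-type contralateral and 58.9 ± 7.3% in wild-type ipsilateral libraries, against 46.8 ± 1.5% and 47.7 ± 4.0% in the 2 Astro-KO groups. The 9 genes took 0.927 to 2.38% of all counts in a library.

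**Figure D1:**
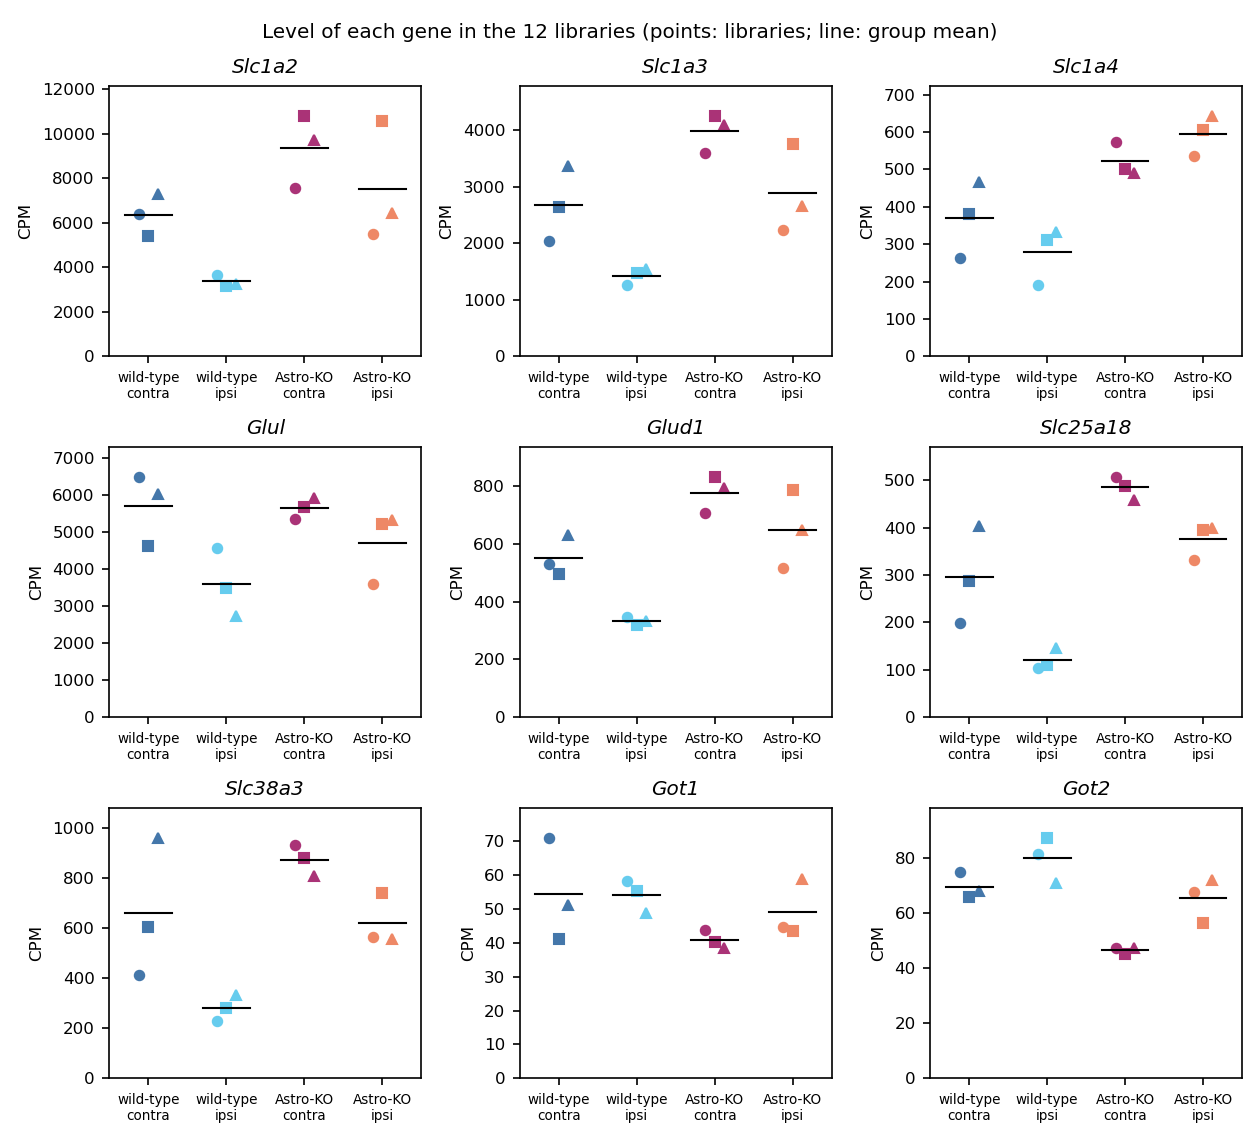
Level of each of the 9 genes in CPM (vertical axes, linear and starting at 0) in the 12 libraries; points are libraries, with 1 symbol per mouse within a genotype, and lines are group means. For Slc1a2, Slc1a3, Glud1, Slc25a18 and Slc38a3 all 3 wild-type ipsilateral libraries lie below every other library, and Got2 has its 3 lowest libraries in the Astro-KO contralateral group.

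Between hemispheres of wild-type mice, 5 of the 9 genes fell on the ipsilateral side and none rose: the uptake transporters Slc1a2 and Slc1a3, the glutamine carrier Slc38a3, the mitochondrial carrier Slc25a18 and Glud1. Of all genes tested, 9.54% fell and 9.61% rose in the same comparison. The median log2 fold change of the 9 was -0.73, against -0.06 over all genes. Calls are adjusted p-values under 0.05 from edgeR's quasi-likelihood test, with Benjamini-Hochberg adjustment over all 15571 genes.

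Slc1a2, the main glutamate transporter of the forebrain, was at 6409, 5392 and 7281 CPM in the wild-type contralateral libraries of mice 296, 297 and 474, and at 3672, 3168 and 3244 CPM in their ipsilateral libraries. The ipsilateral values were close together and below all contralateral ones (log2 fold change -0.92 ± 0.25 SE, adjusted p = 0.0250). Slc1a3 was at 2036, 2643 and 3370 CPM contralaterally and 1257, 1478 and 1553 ipsilaterally, again with no overlap (-0.91 ± 0.23, adjusted p = 0.0183). Slc1a4, the neutral amino acid exchanger, was at 262, 380 and 467 CPM against 191, 311 and 333. Its groups overlapped, and the log2 fold change of -0.41 ± 0.23 did not pass (adjusted p = 0.240). With the mouse as a block, which compares the hemispheres within each mouse, Slc1a4 passed (-0.41, adjusted p = 0.0452). Over all genes 29.8% passed with the block, against 19.2% without it.

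Glul was at 6494, 4640 and 6033 CPM contralaterally and 4589, 3490 and 2742 ipsilaterally in wild-type mice. All 3 ipsilateral libraries were below all contralateral ones, though by little for mouse 296 ipsilateral against mouse 297 contralateral. Its log2 fold change of -0.67 ± 0.23 did not pass (adjusted p = 0.0614), but it passed with the mouse as a block (-0.68, adjusted p = 0.0298) and in DESeq2 (-0.66, adjusted p = 0.0155). Over all genes 29.8% passed with the block and 24.6% in DESeq2, against 19.2% in the main fit. Slc38a3, which carries glutamine out of astrocytes, was at 412, 604 and 960 CPM contralaterally and 231, 283 and 333 ipsilaterally. It fell by 1.22 ± 0.27 on the log2 scale (adjusted p = 0.00945), and its contralateral libraries were more spread than its ipsilateral ones.

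Slc25a18 showed the largest fall of the 9, by 1.30 ± 0.23 on the log2 scale (adjusted p = 0.00334). This mitochondrial glutamate carrier was at 200, 288 and 403 CPM contralaterally and 105, 110 and 145 ipsilaterally, with no overlap. Glud1, the enzyme that oxidises glutamate in mitochondria, was at 531, 497 and 629 CPM against 348, 320 and 334 (-0.73 ± 0.17, adjusted p = 0.0127). The aminotransferases did not follow. Got1 was at 70.9, 41.0 and 51.0 CPM contralaterally and 58.3, 55.2 and 48.9 ipsilaterally, with overlapping groups (-0.00 ± 0.19, adjusted p = 0.994). Got2 was at 74.8, 65.6 and 67.8 CPM against 81.1, 87.1 and 70.8, also overlapping (0.20 ± 0.12, adjusted p = 0.282). The groups were apart, with the ipsilateral side lower, for 6 of the 9 genes (Glul and the 5 called), as for 16.6% of all genes (17.3% were apart and higher, 34% in either direction).

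The astrocyte markers moved with these genes: 8 of 10 fell in the same comparison, with a median log2 fold change of -0.86. Set against the mean log2 CPM of the 10 astrocyte markers in each library, the wild-type ipsilateral minus contralateral difference was -0.00 for Slc1a2, 0.02 for Slc1a3, 0.22 for Glul and 0.19 for Glud1. It was -0.25 for Slc38a3, -0.35 for Slc25a18, 0.50 for Slc1a4, 0.94 for Got1 and 1.10 for Got2. With that marker mean as a covariate, chosen after seeing the data, 0 of the 9 and 0 of all genes passed in edgeR. With the mean of the oligodendrocyte markers as the covariate 5 of the 9 passed, and 2758 of all genes. The part of astrocyte content in the falls was not tested further. The count of 5 was 2 without ipsilateral 297, 2 without contralateral 474, 1 (Slc25a18) without both libraries of mouse 297 and 2 without both of mouse 474. Over all genes the 2982 calls became 1435, 1557, 659 and 1212 in the same fits. Without mouse 296 the count was 4, with 3288 calls over all genes.

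**Figure D2:**
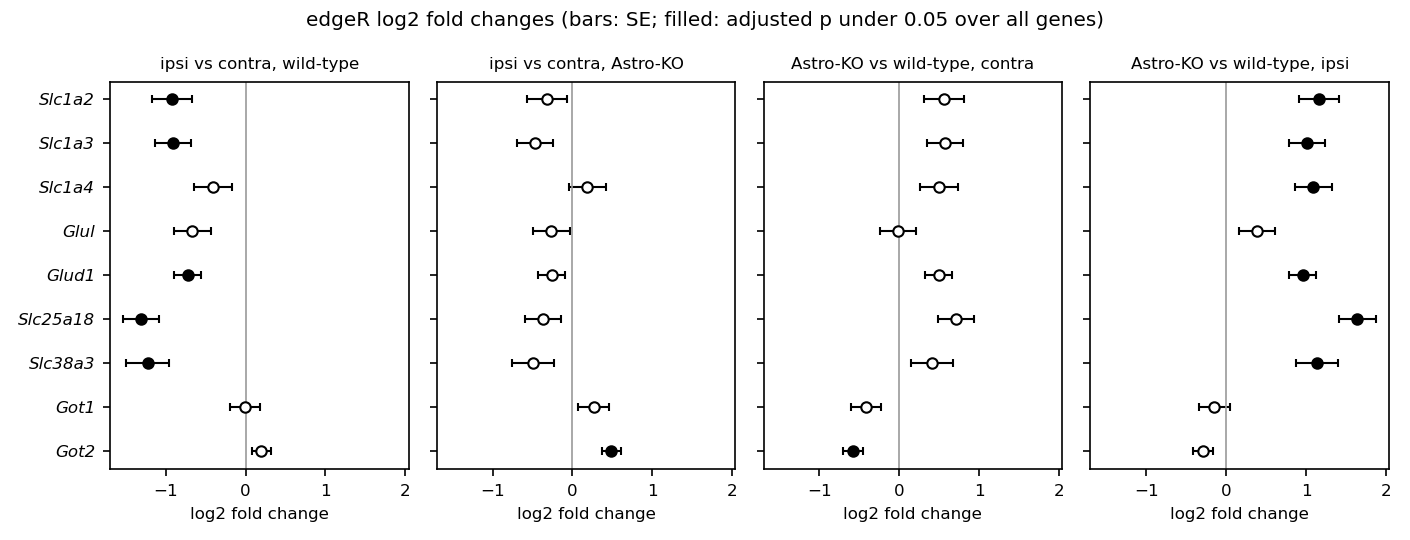
Log2 fold changes from edgeR (horizontal axes) of the 9 genes in the 4 comparisons; bars are SE and filled points passed an adjusted p of 0.05 over all genes. In wild-type mice 5 genes fell ipsilaterally, and 6 genes rose in Astro-KO against wild-type ipsilateral libraries, while the other 2 panels have 1 call each, both Got2.

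In Astro-KO mice 1 of the 9 genes passed between hemispheres, Got2, which rose ipsilaterally. Over all genes 5.45% rose and 0.841% fell in this comparison (6.29% in either direction). On the TPM scale the split was 370 higher of 552 called, against 848 of 979 here. Got2, the mitochondrial aspartate aminotransferase, was at 47.2, 45.1 and 47.1 CPM in the contralateral libraries of mice 295, 298 and 300 and at 67.6, 56.4 and 71.8 ipsilaterally. All ipsilateral values were above all contralateral ones (log2 fold change 0.49 ± 0.12, adjusted p = 0.0401). The call was lost without any 1 of 7 libraries, among them each Astro-KO library other than the ipsilateral one of mouse 298, and on the TPM scale (0.30, adjusted p = 0.120).

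The uptake transporters had lower ipsilateral means in Astro-KO mice, with wide ipsilateral spread. Slc1a2 was at 7563, 10790 and 9735 CPM contralaterally and 5497, 10558 and 6421 ipsilaterally, the ipsilateral library of mouse 298 being as high as the contralateral ones (-0.32 ± 0.25, adjusted p = 0.422). Slc1a3 was at 3605, 4252 and 4092 CPM against 2242, 3752 and 2656, where mouse 298 again was the highest ipsilateral value (-0.47 ± 0.23, adjusted p = 0.215). Slc1a4 was at 574, 500 and 490 CPM contralaterally and 534, 605 and 642 ipsilaterally, with overlapping groups (0.19 ± 0.23, adjusted p = 0.634).

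Of the glutamine genes, Glul was at 5354, 5689 and 5933 CPM contralaterally and 3607, 5225 and 5326 ipsilaterally in Astro-KO mice. All ipsilateral values were below all contralateral ones, 2 of them narrowly, and the difference did not pass (-0.26 ± 0.23, adjusted p = 0.481). Slc38a3 was at 932, 879 and 809 CPM against 564, 740 and 557, also without overlap (-0.49 ± 0.26, adjusted p = 0.250). The mitochondrial carrier Slc25a18 was at 507, 489 and 459 CPM against 331, 396 and 399, the other gene whose ipsilateral libraries all lay lower (-0.37 ± 0.22, adjusted p = 0.303). Glud1 was at 708, 831 and 791 CPM against 515, 786 and 647 (-0.26 ± 0.17, adjusted p = 0.337), and Got1 at 43.7, 40.2 and 38.3 against 44.6, 43.3 and 58.9 (0.26 ± 0.19, adjusted p = 0.388). Thus 3 of the 9 genes were apart with the ipsilateral side lower, where 20.2% of all genes were, and 1 was apart with it higher, where 18.6% were. Of the astrocyte markers 0 of 10 passed in edgeR (median -0.26), and 2 of 10 oligodendrocyte markers rose (median 0.81).

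Between genotypes in the contralateral hemisphere, 1 of the 9 genes passed: Got2 was lower in Astro-KO mice, at 45.1 to 47.2 CPM against 65.6 to 74.8 in wild-type mice (-0.58 ± 0.12, adjusted p = 0.0429). Of all genes 1.41% fell, 0.0835% rose and 1.5% passed in either direction. The call for Got2 was lost without any 1 of 8 libraries, among them each of the 6 contralateral libraries, and on the TPM scale (-0.44, adjusted p = 0.118). Without the wild-type contralateral library of mouse 474, Slc25a18 was called higher in Astro-KO instead (1.02, adjusted p = 0.0472).

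None of the other 8 genes passed. Slc25a18 had 459 to 507 CPM in Astro-KO against 200 to 403 in wild-type contralateral libraries (0.71 ± 0.22, adjusted p = 0.170). Slc1a2 (0.56 ± 0.25), Slc1a3 (0.57 ± 0.23), Slc1a4 (0.50 ± 0.23) and Glud1 (0.49 ± 0.17) had their Astro-KO libraries all above their wild-type ones, with adjusted p from 0.204 to 0.361. Slc38a3 (0.41 ± 0.26, adjusted p = 0.494) and Got1 (-0.41 ± 0.19, adjusted p = 0.350) had overlapping groups. Glul, the glutamine synthetase, had a log2 fold change of -0.02 ± 0.23 (adjusted p = 0.980). In all, 5 genes were apart with Astro-KO higher, where 11% of all genes were, and Got2 was apart with it lower, where 13.5% were. Beside this, 5 of 10 oligodendrocyte markers (median -1.43) and 1 of 5 choroid plexus markers (median -1.88) were lower in Astro-KO contralateral libraries. None of 10 astrocyte (median 0.43), 10 microglial (median 0.87) or 8 monocyte and macrophage markers (median 1.26) passed in edgeR. Their part in these values was not tested.

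In the ipsilateral hemisphere 6 of the 9 genes were higher in Astro-KO than in wild-type mice and none was lower. Over all genes 4.33% were higher and 1.98% lower in Astro-KO, and 6.31% passed in either direction. On the TPM scale 347 of 685 called genes were higher, against 675 of 983 here, and 4 of the 9 genes passed. Slc1a3 (0.89, adjusted p = 0.0528) and Slc38a3 (1.04, adjusted p = 0.0547) lost their calls there. The median log2 fold change of the 9 genes was 1.01, against 0.02 over all genes.

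Slc25a18 showed the largest difference, at 331, 396 and 399 CPM in the Astro-KO ipsilateral libraries of mice 295, 298 and 300 against 105, 110 and 145 in the wild-type ones. The groups were far apart, by 1.64 ± 0.23 on the log2 scale (adjusted p = 0.00659). Of the uptake transporters, Slc1a2 had 5497, 10558 and 6421 CPM against 3672, 3168 and 3244 (1.16 ± 0.25, adjusted p = 0.0216), and Slc1a3 had 2242, 3752 and 2656 against 1257, 1478 and 1553 (1.01 ± 0.23, adjusted p = 0.0258). For both the library of mouse 298 was the highest, and the lowest Astro-KO value was still above all wild-type ones. Slc1a4, at 534 to 642 CPM against 191 to 333, rose by 1.09 ± 0.24 (adjusted p = 0.0212). Slc38a3, at 557 to 740 CPM against 231 to 333, rose by 1.14 ± 0.27 (adjusted p = 0.0284).

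Glud1 had 515, 786 and 647 CPM in Astro-KO against 348, 320 and 334 in wild-type ipsilateral libraries (0.96 ± 0.17, adjusted p = 0.0109). Glul, the enzyme that makes glutamine, was not among the genes called: its Astro-KO values of 3607, 5225 and 5326 CPM overlapped the wild-type values of 4589, 3490 and 2742 (0.39 ± 0.23, adjusted p = 0.358). Got1 (-0.15 ± 0.19, adjusted p = 0.710) and Got2 (-0.29 ± 0.12, adjusted p = 0.201) also had overlapping groups, with 43.3 to 58.9 against 48.9 to 58.3 CPM and 56.4 to 71.8 against 70.8 to 87.1 CPM. The 6 genes called were those whose groups were apart, as were 13.7% of all genes in this direction and 10.1% in the other.

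The astrocyte markers moved with these genes here too, 9 of 10 being higher in Astro-KO (median log2 fold change 1.06), while 3 of 10 oligodendrocyte and 2 of 5 choroid plexus markers were lower (medians -0.99 and -1.64). Relative to the mean of the astrocyte markers, the Astro-KO minus wild-type ipsilateral difference was 0.04 for Slc1a2, -0.07 for Slc1a3, 0.07 for Slc1a4, 0.08 for Slc38a3, -0.12 for Glud1 and 0.59 for Slc25a18. It was -0.66 for Glul, -1.21 for Got1 and -1.35 for Got2. With the mean of the astrocyte or of the oligodendrocyte markers as a covariate, 0 of the 9 genes and 0 of all genes passed in edgeR. The log2 fold changes of Slc1a2, Slc1a3 and Slc25a18 were then 0.03, -0.34 and 0.32 with the astrocyte mean, and 0.96, 1.10 and 1.84 with the oligodendrocyte mean. The part of cell composition in these differences was not tested further. The count of 6 was 1 when only the 2 groups compared were fitted, 2 without wild-type ipsilateral 296, 1 without wild-type ipsilateral 297, 2 without Astro-KO ipsilateral 298 and 3 without Astro-KO ipsilateral 300. Over all genes the 983 calls became 196, 496, 65, 380 and 567 in the same fits. Without both libraries of a mouse the count was 0 (297), 3 (295), 1 (298) and 1 (300), where all genes gave 0, 233, 107 and 222 calls. Without mouse 296 it was 6, with 967 calls over all genes. Slc25a18 kept its call without any single library and lost it without mouse 297 (1.59, adjusted p = 0.0669).

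**Figure D3:**
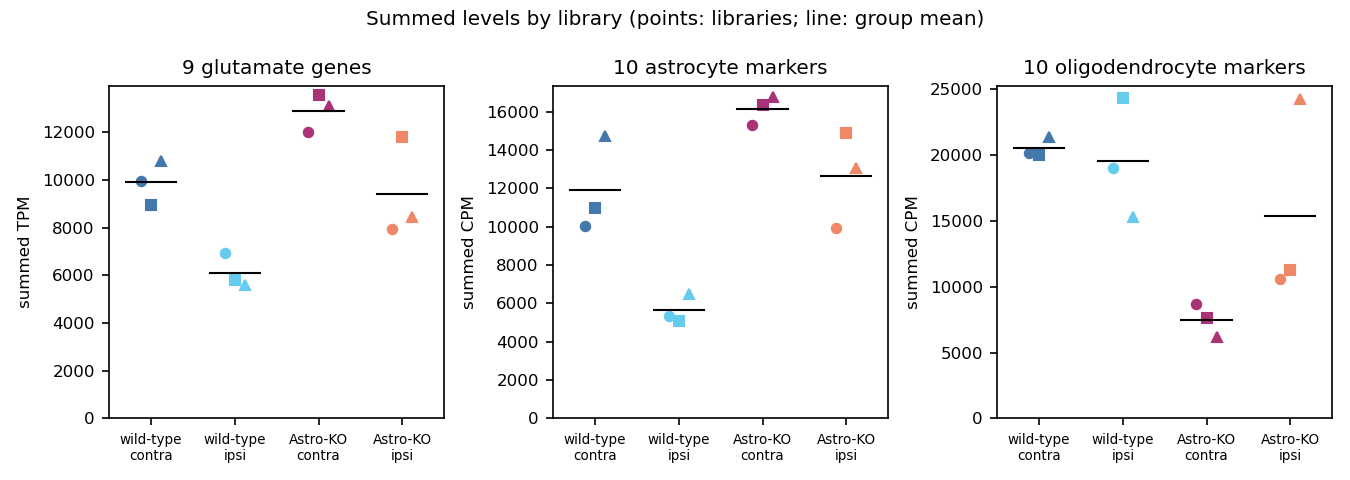
Summed TPM of the 9 genes (left) and summed CPM of 10 astrocyte markers (middle) and 10 oligodendrocyte markers (right) in the 12 libraries; points are libraries, lines are group means and all axes start at 0. The left and middle panels have their lowest libraries in the wild-type ipsilateral group (5576 to 6923 TPM and 5089 to 6467 CPM), and the Astro-KO ipsilateral library of mouse 300 has 24289 CPM of oligodendrocyte markers.

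Whether the hemisphere difference itself differed between genotypes was tested with an interaction term. None of the 9 genes passed in edgeR, DESeq2 or limma on TPM. Without adjustment 1 gene, Slc25a18, was under 0.05 in edgeR (0.93 ± 0.31, adjusted p = 0.948). All 9 estimates were above 0, with a median of 0.47, and 56.9% of all genes had an estimate above 0. Those of all 10 astrocyte markers (median 0.67) and all 10 oligodendrocyte markers (median 0.36) were above 0 too. Of the microglial markers 9 of 10 were below 0 (median -0.43). Over all genes edgeR called 0 (0%) and DESeq2 20, and 4.90% had an unadjusted p under 0.05. The fall in wild-type mice and its absence among the calls in Astro-KO mice are therefore not shown to differ. The comparisons share libraries, since the wild-type ipsilateral group enters both the hemisphere comparison in wild-type mice and the ipsilateral comparison of genotypes.

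Averaged over both genotypes, 7 of the 9 genes passed between hemispheres, 6 of them lower ipsilaterally and Got2 higher. Among all genes 33.2% passed, 16.1% lower and 17.1% higher. The mean log2 fold changes were -0.62 ± 0.18 for Slc1a2, -0.69 ± 0.16 for Slc1a3, -0.84 ± 0.16 for Slc25a18, -0.86 ± 0.19 for Slc38a3 and -0.49 ± 0.12 for Glud1, with adjusted p from 0.00252 to 0.0192. Glul, at -0.46 ± 0.16, was nearest the threshold (adjusted p = 0.0444) and lost its call without any 1 of 9 libraries. Got2 rose by 0.34 ± 0.09 (adjusted p = 0.0118), while Slc1a4 (-0.11 ± 0.16) and Got1 (0.13 ± 0.13) did not pass. Of the astrocyte markers 6 of 10 fell as well (median -0.61), and 3 of 10 oligodendrocyte markers rose (median 0.58). With the astrocyte marker mean as a covariate 0 of the 9 genes and 3 of all genes passed in edgeR, and with the oligodendrocyte marker mean 2 of the 9 and 1897 of all genes. The count was 4 without mouse 297 and 3 without mouse 300, where the 5169 calls over all genes became 2812 and 3037.

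Within mice, Slc1a2, Slc1a3, Glul, Glud1, Slc25a18 and Slc38a3 were each lower ipsilaterally in 6 of 6 mice, and Got2 was higher in 6 of 6. Of all genes 19.5% were lower in 6 of 6 mice and 19% higher. For Slc1a2 the ipsilateral minus contralateral difference in log2 CPM was -0.80, -0.77 and -1.17 in wild-type mice 296, 297 and 474 and -0.46, -0.03 and -0.60 in Astro-KO mice 295, 298 and 300. Mouse 298 thus had almost equal levels in its hemispheres, and no Astro-KO mouse reached the size of the smallest wild-type difference. For Slc25a18 the differences were -0.93, -1.38 and -1.47 against -0.61, -0.30 and -0.20, again with every Astro-KO mouse nearer to 0 than every wild-type mouse. For Slc38a3 they were -0.84, -1.10 and -1.53 against -0.73, -0.25 and -0.54. Slc1a4 was lower ipsilaterally in 4 mice and higher in Astro-KO mice 298 (0.28) and 300 (0.39). Got1 was lower ipsilaterally in 2 mice. The differences of all Astro-KO mice lay above those of all wild-type mice for 6 of the 9 genes, all but Glul, Got1 and Got2, and for Slc1a3 only by -0.69 against -0.70; the same held for 10.7% of all genes, and the reverse for 6.19%.

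**Figure D4:**
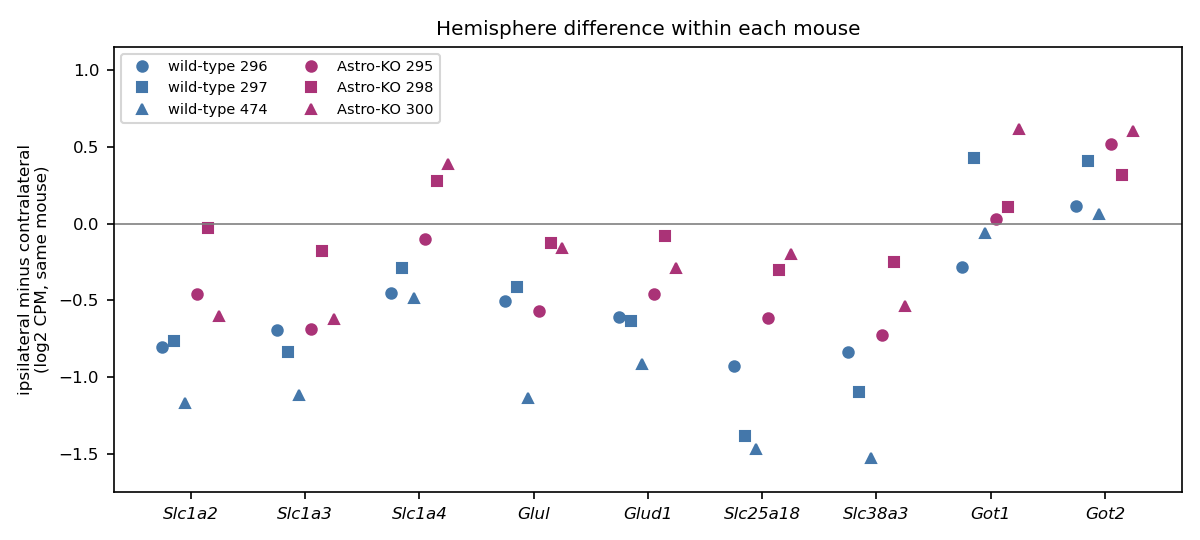
Ipsilateral minus contralateral difference in log2 CPM (vertical axis) within each of the 6 mice for the 9 genes; blue points are wild-type and purple points Astro-KO mice, with 1 symbol per mouse. For 6 genes every mouse lies below 0 and for Got2 every mouse lies above it, and mouse 298 is close to 0 for Slc1a2 (-0.03).

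The order of the groups by mean CPM was the same for Slc1a2, Slc1a3, Glud1 and Slc25a18: Astro-KO contralateral, Astro-KO ipsilateral, wild-type contralateral and wild-type ipsilateral. For Slc1a2, Slc1a3 and Glud1 the 3 highest groups overlapped with their neighbours and the wild-type ipsilateral libraries lay apart below. For Slc25a18 the Astro-KO contralateral libraries were apart at the top as well, while Astro-KO ipsilateral and wild-type contralateral overlapped. Slc38a3 had wild-type contralateral in the second place, overlapping with both neighbours, and the wild-type ipsilateral group again apart. Slc1a4 was ordered by genotype, with both Astro-KO groups above both wild-type groups and overlap only within a genotype. Got2 had the reverse order of genotypes, wild-type ipsilateral being highest and Astro-KO contralateral lowest and apart from the rest, and Got1 overlapped at every step. Glul had its highest mean in the wild-type contralateral group, which overlapped with Astro-KO contralateral, and Astro-KO ipsilateral overlapped with wild-type ipsilateral.

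The ratio of the uptake transporters to each other was similar by group mean and varied more between mice. In TPM, Slc1a2 over Slc1a3 was 1.59 ± 0.40 in wild-type contralateral, 1.55 ± 0.30 in wild-type ipsilateral, 1.52 ± 0.14 in Astro-KO contralateral and 1.66 ± 0.14 in Astro-KO ipsilateral libraries (SD, n = 3). The largest ratios were both from mouse 296, 2.05 contralaterally and 1.90 ipsilaterally, and the smallest was 1.33, from mouse 297 contralaterally. Got1 over Got2 was 0.858 ± 0.174, 0.755 ± 0.042, 0.971 ± 0.069 and 0.833 ± 0.10 in the same order.

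The genes whose pattern over the 12 libraries was most like that of Slc1a2, by the root mean square difference of centred log2 CPM among 6741 genes, were Trim9 (0.13), Cadm2 (0.14), Glud1 (0.15), Gpm6a (0.16) and Gli3 (0.17), against a median of 0.65 over all genes compared. For Slc1a3 they included Cyp2j6, Gpm6a, Asrgl1 and Camk2g, at 0.10 to 0.11, and Slc1a2 itself was at rank 84. For Glul they were Eci2 (0.09), Agpat3 (0.12), Snn (0.14), Grina (0.14) and Atraid (0.14), and the nearest of the other 8 genes, Glud1, was at rank 910. Got1 and Got2 were at ranks 4779 and 5675 from Slc1a2. These values describe 12 libraries of 6 mice, which differ in depth and in their levels of cell type markers. No test was made.

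Of 6 genes of GABA uptake and breakdown, a transmitter made from glutamate, all 6 fell ipsilaterally in wild-type mice, where 9.54% of all genes fell. Their median log2 fold change was -1.0, against -0.06 over all genes. The GABA transporters Slc6a13 (-1.86 ± 0.37, adjusted p = 0.00634) and Slc6a11 (-1.44 ± 0.27, adjusted p = 0.00491) fell most, and the catabolic enzymes Abat (-0.81 ± 0.17, adjusted p = 0.00849) and Aldh5a1 (-0.62 ± 0.16, adjusted p = 0.0226) fell less. In Astro-KO mice 0 of 6 passed in edgeR, where 0.841% of all genes fell and 5.45% rose. The smallest adjusted p were those of Slc6a11 (-0.82 ± 0.27, adjusted p = 0.0847) and Aldh5a1 (-0.36 ± 0.16, adjusted p = 0.188). For the interaction 0 of 6 and 0 of all genes passed in edgeR, so the fall is not shown to differ between genotypes. Contralaterally between genotypes 0 of 6 passed as well, where 1.5% of all genes did. Slc6a11 gave 0.77 ± 0.27 (adjusted p = 0.207) and Aldh5a1 0.43 ± 0.16 (adjusted p = 0.261). Ipsilaterally 3 of 6 were higher in Astro-KO than in wild-type mice (median 0.80), Slc6a11 by 1.39 ± 0.27, Abat by 0.88 ± 0.17 and Aldh5a1 by 0.69 ± 0.16 on the log2 scale (adjusted p = 0.0145, 0.0151 and 0.0308). Of all genes 4.33% were higher in that comparison.

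Sodium-coupled uptake depends on ion gradients, and of 6 ion partners (median -0.62) 3 fell ipsilaterally in wild-type mice, where 9.54% of all genes fell. Among the 3 were the sodium pump subunit Atp1b2 (-0.82 ± 0.22, adjusted p = 0.0246) and the bicarbonate cotransporter Slc4a4 (-0.89 ± 0.25, adjusted p = 0.0274). Ipsilaterally 4 of the 6 were higher in Astro-KO mice (median 0.84), among them Slc4a4 by 1.28, Atp1b2 by 1.02 and the potassium channel Kcnj10 by 0.66, and the sodium-calcium exchanger Slc8a3 was lower (-1.63 ± 0.37, adjusted p = 0.0261). Over all genes 4.33% were higher and 1.98% lower in that comparison. In Astro-KO mice and contralaterally between genotypes 0 of 6 passed in edgeR, where 6.29% and 1.5% of all genes did. Between hemispheres of Astro-KO mice Slc4a4 gave -0.46 ± 0.25 (adjusted p = 0.250), and contralaterally Slc8a3 gave -1.35 ± 0.37 (adjusted p = 0.104). Atp1b2 and Slc4a4 are also among the 10 astrocyte markers.

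Of 18 other enzymes that use glutamate or glutamine 17 were tested. In wild-type mice 6 rose ipsilaterally and 3 fell (median 0.23), where 9.61% of all genes rose and 9.54% fell. Asparagine synthetase (Asns) rose most, by 2.84 ± 0.49 (adjusted p = 0.00340), followed by Aldh18a1, which starts proline synthesis from glutamate (1.73 ± 0.35, adjusted p = 0.00681), and the CTP synthetase gene Ctps (1.40 ± 0.20, adjusted p = 0.00153). The alanine aminotransferase Gpt2 fell by 0.92 ± 0.18 (adjusted p = 0.00564) and the branched-chain aminotransferase Bcat2 by 0.72 ± 0.15 (adjusted p = 0.00674). In Astro-KO mice 4 of the 17 rose ipsilaterally and none fell, where 5.45% of all genes rose and 0.841% fell. The 4 were Asns (2.52 ± 0.49), Ctps (1.55 ± 0.20), Bcat1, the cytosolic relative of Bcat2 (1.5 ± 0.37), and Aldh18a1 (1.46 ± 0.34). Bcat1 was lower in Astro-KO than in wild-type mice on both sides, contralaterally by a log2 fold change of -2.16 ± 0.38 and ipsilaterally of -1.94 ± 0.37 (adjusted p = 0.0168 and 0.0137), the only call among the 17 contralaterally. Oat, which links ornithine to glutamate, was higher in Astro-KO ipsilateral libraries (0.68 ± 0.17, adjusted p = 0.0347), the other ipsilateral call. Between genotypes 1.5% of all genes passed contralaterally and 6.31% ipsilaterally.

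Of 12 other glutamate and glutamine transporters 8 were tested. In wild-type mice 1 of the 8 rose ipsilaterally, where 9.61% of all genes did: Slc7a11, the cystine-glutamate exchanger that releases glutamate (2.07 ± 0.53, adjusted p = 0.0196). In Astro-KO mice 1 of the 8 rose, where 5.45% of all genes did: Slc38a2, a neutral amino acid carrier that takes up glutamine (0.68 ± 0.18, adjusted p = 0.0474). In neither hemisphere did any of the 8 pass between genotypes in edgeR, where 1.5% of all genes passed contralaterally and 6.31% ipsilaterally. Nearest were Slc38a2 contralaterally (-0.72 ± 0.18, adjusted p = 0.0764) and Slc1a1, the uptake transporter better known from neurons, ipsilaterally (-1.11 ± 0.56, adjusted p = 0.274). Of 7 malate-aspartate shuttle and mitochondrial carrier genes 1 fell ipsilaterally in wild-type mice, where 9.54% of all genes fell: Mdh1 (-0.55 ± 0.14, adjusted p = 0.0186). Ipsilaterally 1 of the 7 was higher in Astro-KO than in wild-type mice, where 4.33% of all genes were: Slc25a11 (0.59 ± 0.16, adjusted p = 0.0472). Between hemispheres of Astro-KO mice and contralaterally between genotypes 0 of 7 passed in edgeR, where 6.29% and 1.5% of all genes did.

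The ratio of counts to the reads that the deposited RPKM implies, scaled to its median over genes, was within 0.01 of 1 for 7 of the 9 genes. It was 0.942 for Glud1 and 0.585 for Got2, which has an annotated pseudogene (Got2-ps1) and shares 9.0% of its exon bases with Gm45760, so the level of Got2 is uncertain. Slc25a18 overlaps Atp6v1e1 on the other strand, by 1.67% of its exon bases, and Glul shares 3.49% of its own with other annotated genes. Whether counting used strand is not given in the sources used here.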

How the data were processed

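RNA-seq of ACSA-2+ astrocytes was analysed from 12 libraries of 6 mice. Each deposited table gives, for 48709 genes, whole-number counts of reads per gene, TPM and RPKM as the authors deposited them. Per the submitters' processing notes the build was mm10. Which aligner and counter were used, and whether strand was used, is not given in the sources used here. Of the gene IDs, 48349 matched GENCODE M21 for the same build. The 9 genes and all gene and marker lists were chosen with earlier results of these data known. All 9 genes are named, and of each other list up to 4 genes with the smallest adjusted p in a comparison where they passed, or up to 2 where none did. Those further named were chosen after their values were seen.

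The count model was run in edgeR 4.0.16 (R 4.3.3): filterByExpr (minimum count 10) kept 15571 genes, libraries were scaled by TMM, and a robust quasi-likelihood fit had 1 term per group over all 12 libraries (8 residual degrees of freedom). CPM are TMM-scaled. Log2 CPM used a prior count of 2. The SE, the size of the log2 fold change over √F, is approximate. Benjamini-Hochberg adjustment was over all genes, with calls at 0.05. P-values measure the spread between these libraries, and in the fit without a mouse term the libraries of a mouse count as separate. DESeq2 1.42.0 and limma 3.58.1 (log2(TPM + 1), genes at 1 TPM or more in 3 libraries) gave alternatives, as did other scalings, no filter, covariates, the mouse as a block, and leaving out each library or mouse. The libraries of a number come from the same mouse, which pairs them: their deviations from the group means correlated at 0.681, -0.00636 and 0.422 for mice 296, 297 and 474 and at 0.358, 0.45 and 0.189 for mice 295, 298 and 300, over 13586 genes. Promoter sequences are from RefSeq (GRCm38.p6). How far the deletion went, and some genes that the naming rule would give, are not reported here.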

Additional observations from a re-analysis of the deposited data

How the results depend on the processing

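With 3 mice a group, the calls depended on single libraries, over all genes as among the 9. When each library or mouse was left out, the count ranged from 1 to 6 for the hemispheres of wild-type mice (5 with all libraries), 0 to 1 for those of Astro-KO mice (1), 0 to 1 for the genotypes contralaterally (1), 0 to 6 ipsilaterally (6), 0 throughout for the interaction and 3 to 7 for the mean over both genotypes (7). Over all genes the calls ranged from 659 to 3610, 2 to 2282, 0 to 391, 0 to 1351, 0 throughout and 2812 to 5793 in the same order. Where a group kept 2 libraries, its spread was taken from all groups.

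Fitting only the groups compared gave 3 genes in wild-type mice and 1 ipsilaterally between genotypes (1579 of 15024 and 196 of 14971 genes in all). The contralateral count was 0 with no filter, and it and the count in Astro-KO mice were 0 on TPM with either pseudocount (1 or 0.1). With the oligodendrocyte marker mean as a covariate the counts were 5 in wild-type mice, 0 in Astro-KO mice, 0 and 0 between genotypes and 2 for the mean. Over all genes the calls were 2758, 1, 0, 0 and 1897 in the same order. With the astrocyte marker mean, an alternative chosen after seeing the data, the counts were 0 in each comparison. Over all genes that fit gave 29 calls in Astro-KO mice, 3 for the mean and 0 in the other comparisons. With the mouse as a block the counts were 7 (wild-type mice), 1 (Astro-KO mice), 0 (interaction) and 7 (mean). No call other than those of Slc1a4 and Glul in wild-type mice changed. Calls over all genes rose with the block too, to 4641 from 2982 in wild-type mice and to 2498 from 979 in Astro-KO mice. For the mean they rose to 6640 from 5169, and for the interaction they were 0 in both fits. The comparisons between genotypes hold different mice and cannot take the block. On the TPM scale the median of all genes moved to -0.17 between hemispheres of Astro-KO mice, to 0.12 contralaterally between genotypes and to -0.16 for the interaction.

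Of the single genes, Got1 and Glul values near 0 and, with the marker covariates, larger values turned direction. Got1 in wild-type mice (-0.00) became 0.0038 with DESeq2's size factors and with DESeq2, 0.032 with no filter, 0.030 with only the groups compared, 0.027 with the mouse as a block, and 0.077 and 0.079 on TPM, and ranged from -0.19 to 0.24 with libraries left out. Contralateral Glul (-0.02) became 0.019 with upper-quartile scaling and 0.123 on TPM with either pseudocount, and ranged from -0.15 to 0.087 with libraries left out. Slc1a4 in Astro-KO mice became -0.24 with the oligodendrocyte covariate, and its mean over genotypes ranged from -0.21 to 0.0077 with libraries left out. With the astrocyte covariate the hemisphere values in wild-type mice became 0.0125 (Slc1a2), 0.26 (Slc1a3), 0.41 (Slc1a4), 0.11 (Slc38a3) and -0.22 (Got2), and the contralateral value of Slc38a3 became -0.13. Ipsilaterally they became -0.34 (Slc1a3), -0.34 (Slc38a3), 0.32 (Got1) and 0.19 (Got2). The interaction became -0.074 (Slc1a2), -0.39 (Slc1a3), -0.042 (Glud1) and -0.21 (Slc38a3), and the mean 0.063 (Slc1a3), 0.43 (Slc1a4), 0.0053 (Slc38a3) and -0.13 (Got1). The cause of these changes was not tested. In CPM, uncorrected for length, the ratio of Slc1a2 to Slc1a3 was 2.34 to 2.56 by group mean, and its groups overlapped as in TPM.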
